A study of Rattus norvegicus with 8 samples.

Results

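The Wnt genes of the rat hypothalamus were followed after an injection of retinoic acid (RA), as ligands, receptors, secreted inhibitors and a few members inside the cell. Members were all genes with the symbol Wnt, Fzd, Sfrp or Dkk and a number, together with *Lef1*, *Tcf7*, *Tcf7l2*, *Axin2*, *Ctnnb1*, *Lrp5*, *Lrp6* and *Wif1*, chosen by symbol alone. There were 45 such genes in the reference, of which 37 were matched to a probe by accession, out of 15159 named genes on the arrays. The 8 without a match (*Fzd7*, *Fzd10*, *Sfrp1*, *Tcf7*, *Tcf7l2*, *Wif1*, *Wnt2* and *Wnt3a*) were not analysed here.

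Male rats of the F344N background received all-trans RA or vehicle in the third ventricle, 4 rats each, and tissue blocks of the hypothalamus with the arcuate nuclei were taken 24 hrs later. All rats were held in short photoperiod, no group carried an altered allele, and their age is not given in the sources used here. The labels give RA as 1e-05 M and the vehicle as saline, whereas the methods of the study name a higher RA concentration and a vehicle with DMSO. RNA of both groups was hybridised together on 8 Agilent arrays in 2 colours, with the dyes swapped. RA was in Cy5 on arrays 1, 3, 6 and 8, and in Cy3 on arrays 2, 4, 5 and 7. The sources do not say which arrays carried RNA of the same rats, so p values measure the spread between pairs of arrays, which may in part be technical. Arrays of opposite dye can be paired in 24 ways, with correlations within pairs from -0.22 to 0.37. The highest was for arrays 1 and 2, 3 and 4, 6 and 7, and 8 and 5. Whether these shared RNA was not tested, so a pattern on arrays 5 and 8, or on 6 and 7, may be 1 comparison seen on 2 arrays. The methods of the study state that samples were used again with the dyes exchanged. A sign shared by all 8 arrays is therefore not 8 independent readings.

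Wnt ligands are secreted lipid-modified proteins that bind Frizzled (Fzd) receptors together with the co-receptors Lrp5 and Lrp6. In the canonical branch this stops the breakdown of beta-catenin, encoded by *Ctnnb1*, which then enters the nucleus and works with TCF/LEF factors such as Lef1. Secreted frizzled-related proteins (Sfrp) and Dickkopf proteins (Dkk) act outside the cell, mostly as inhibitors. *Axin2* is a feedback inhibitor and a widely used transcriptional readout of the pathway. In the brain the pathway is known for its part in patterning, synapses, blood vessels and neural progenitors, the tanycytes of the third ventricle wall included.

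All values here are log2 ratios of RA over vehicle, with values above 0 for genes higher after RA and 1 for a doubling. A gene was read from its brightest probe. It was called changed at an unadjusted p under 0.01 in limma, the threshold named in the study's methods, with the least favourable of the 24 ways to pair arrays of opposite dye. Adjusted p values are adjusted over all probes. A probe counted as detected, or above background, on an array where the image software marked a share of 0.5 or more of its spots as well above background in the RA or in the vehicle channel.

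Facts about the whole experiment touch several results and are given first. The share of probes above background in the RA channel was 73.3% to 74.6% on arrays with RA in Cy5 and 57.4% to 63.5% with RA in Cy3. The vehicle channel was likewise higher in Cy5 (67.6% to 74.5%) than in Cy3 (61.2% to 66.5%). Of the 19 measured markers of hypothalamic neurons, 17 were above background on all 8 arrays. Arrays 5 and 8, which are of opposite dye order, stood apart by low hypothalamic neuron markers (list medians -0.35 and -0.26, against -0.030 to 0.14 on the others) and high thalamic neuron markers (0.29 and 0.60, against -0.41 to -0.027 on the others). Arrays 6 and 7, again of opposite dye order, stood apart by low choroid plexus markers (-1.28 and -1.24, against 0.050 to 0.46 on the others). For genes in which these arrays stood out, the fold change is also given without them.

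None of the 37 members passed the threshold. Of all named genes, 3.52% passed it as higher and 0.792% as lower after RA. At an unadjusted p under 0.05 in limma, 3 members passed and all were lower after RA, namely the ligands *Wnt2b* and *Wnt7a* and the Dickkopf family member *Dkk3*. Of all named genes, 8.48% were higher and 4.57% lower at that p. With the least favourable pairing, no member reached an adjusted p under 0.05 in limma and neither did any other probe. The lowest adjusted p was 0.22 over all probes and 0.32 among the members. In some other fits a few target genes did reach it, as given at the end. The median log2 fold change was -0.0070 over the 37 members and -0.0046 over all named genes, with 14 members above and 23 below 0. The middle of the distribution was narrow, with quartiles of the members at -0.068 and 0.028 and of all named genes at -0.055 and 0.050. *Wnt2b* was the single member with the same sign on all 8 arrays, below 0, where 1.78% of named genes were below and 4.08% above 0 on all 8.

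Detection set which members could be read at all. Of the 37 members, 26 were well above background on all 8 arrays. *Dkk1*, *Dkk2*, *Dkk4*, *Fzd4*, *Fzd5*, *Wnt8b* and *Wnt9a* were well above background on no array, and *Wnt8a* on 1, in the vehicle channel, so no ratio is given for these 8. *Wnt10a* and *Sfrp4* were above background on 7 arrays and *Wnt10b* on 5. *Sfrp4* and *Wnt10b* were marked above background only in the Cy5 channel, whichever RNA it held, and never in Cy3. In Cy3, *Wnt7b* was above background on 1 array, *Wnt10a* on 2 and *Wnt6* on 5, against 8, 7 and 8 in Cy5. Over the 26 members above background on all arrays the median log2 fold change was -0.025, against -0.0076 for the 10878 named genes of the same kind.

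Promoter sequence was available for 25 of the 37 members from RefSeq (GRCr8), as 250 bases before and 50 after the start. The TCF/LEF core, CTTTGAA or CTTTGAT on either strand, was in 3 of the 25 (12%), *Axin2*, *Dkk1* and *Wnt8a*, against 8.73% of all 33469 promoters in the table. The half-site of RA receptors, AGGTCA, was in 1 of the 25 (4%), against 16.2% of all, and no member held a direct repeat of it with 5, 2 or 1 bases between or GGTTCA followed after 5 bases by AGTTCA. Direct repeats with a spacing of 5 were in 3 of all 33469 promoters. Member promoters were rich in G and C, with a median of 65.3%, against 51.7% for all. A match is a description of the letters, and RA response elements often lie outside such a window.

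For 18 of the 25, the start in the table is the outer end of the gene in the reference. In *Axin2* and *Lef1* it lies further in, so that the gene extends upstream of that start, and only the short stretches around the TCF/LEF cores of *Axin2* are shown, as the readout of the pathway. The upstream 250 bases of *Wnt2b*, which was below 0 on all 8 arrays, hold none of these motifs and are shown whole. Sequences run 5′ to 3′ on the strand of the gene, capitals mark the TCF/LEF core, and the cores begin at positions -232 and -132 from the start.
*Axin2*, position -232, chr10:94398542-94398570, + strand, GRCr8: tcagatttcgcCTTTGAAaaagctgtgtc
*Axin2*, position -132, chr10:94398642-94398670, + strand, GRCr8: ttactttcttgCTTTGATgttgggtagat
*Wnt2b*, upstream bases, chr2:195156946-195157195, - strand, GRCr8: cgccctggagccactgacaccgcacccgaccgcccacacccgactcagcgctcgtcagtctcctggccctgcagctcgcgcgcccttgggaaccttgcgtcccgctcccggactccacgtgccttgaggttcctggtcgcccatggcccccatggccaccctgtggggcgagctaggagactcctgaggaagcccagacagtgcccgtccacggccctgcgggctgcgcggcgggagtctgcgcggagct

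**Figure D1:**
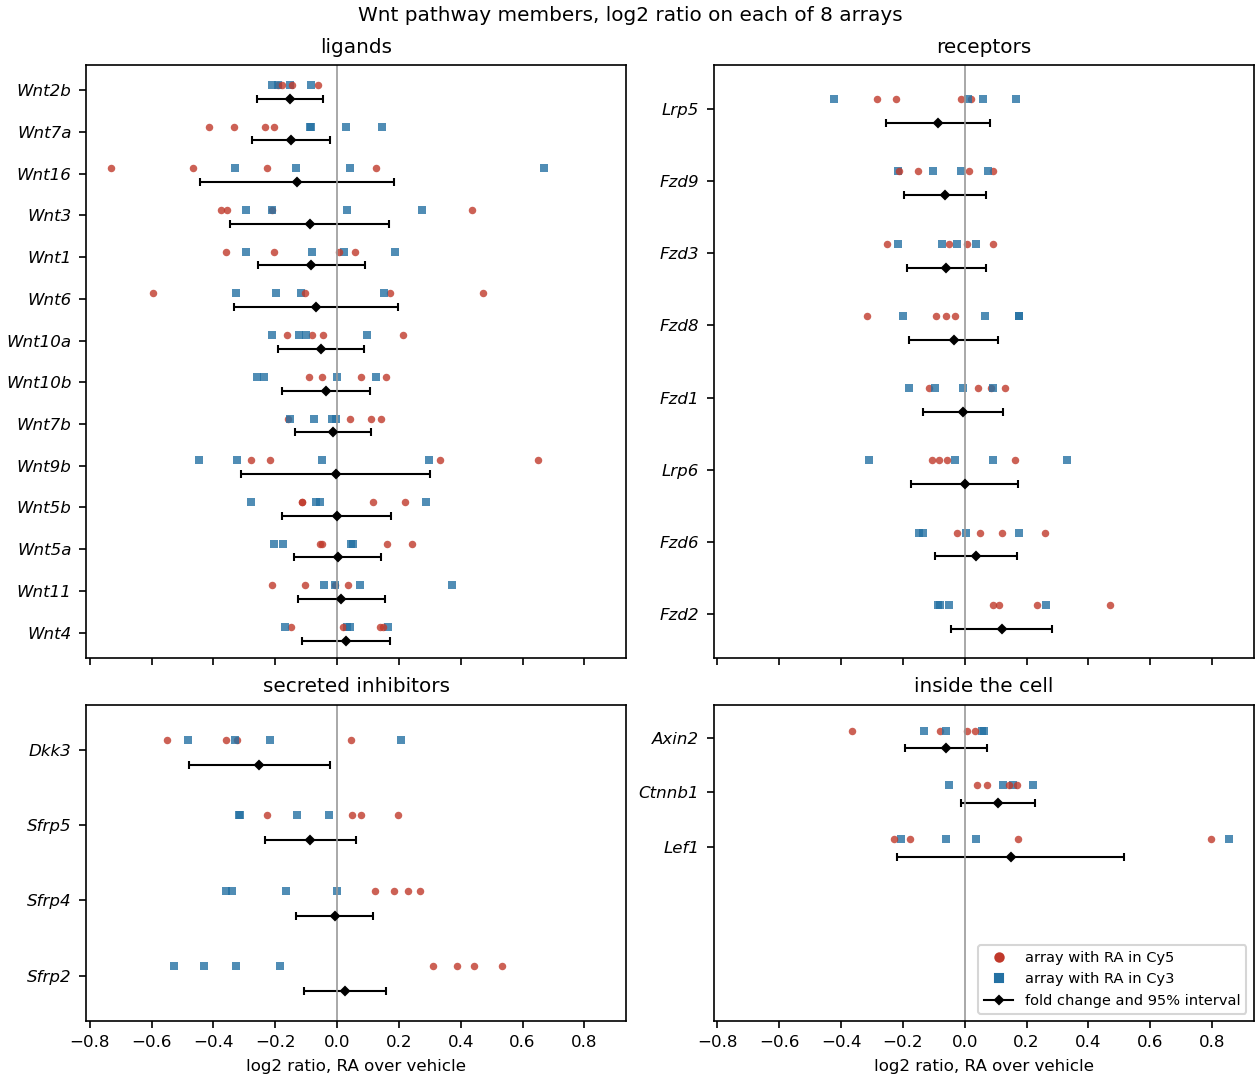
Log2 ratios of RA over vehicle (x axis) for the 29 members above background on at least 5 arrays, grouped by role, with 1 point per array coloured by dye order and a black diamond with a 95% confidence interval for the fold change. The points of *Wnt2b* all lie below 0, those of *Lef1* reach 0.80 and 0.86 on 2 arrays, and the points of *Sfrp2* separate by dye order.

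Of the 17 ligands measured, 12 were above background on all 8 arrays. The 14 ligands with a ratio ranged from -0.15 in *Wnt2b* to 0.028 in *Wnt4*. *Wnt2b* encodes a canonical ligand. Its log2 ratios on arrays 1 to 8 were -0.19, -0.21, -0.062, -0.15, -0.19, -0.18, -0.085 and -0.15. All arrays were low by a similar amount, and the dye orders overlapped, with means of -0.14 for RA in Cy5 and -0.16 for Cy3. The log2 fold change was -0.15 ± 0.045 (SE, 4 pairs of arrays), 1.11-fold lower after RA. It missed the unadjusted threshold of 0.01 over all pairings and passed it in 23 of the 24, and the adjusted p was 0.32 in limma. The pairing in which it missed joined arrays 1 and 2, 3 and 4, 6 and 7, and 8 and 5. That pairing had the highest correlation within pairs (0.37), so the number of pairings passed is not a measure of support. Both rows of the slide had a mean of -0.15, and the fold change was -0.15 without arrays 5 and 8 and -0.16 without arrays 6 and 7.

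*Wnt7a*, a ligand known for synapse formation and brain vessels, gave -0.41, -0.089, -0.23, 0.028, 0.14, -0.33, -0.085 and -0.20 on arrays 1 to 8. Its arrays with RA in Cy5 were all lower than its arrays with RA in Cy3, with no overlap (means -0.30 and -0.00047). The log2 fold change, a mean of both dye orders in which a dye effect cancels, was -0.15 ± 0.054 (SE, 4 pairs of arrays) (adjusted p = 0.38, limma). A lower value after RA was seen with RA in Cy5 and not with RA in Cy3.

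*Wnt16* was the ligand with the widest spread, with -0.23, 0.041, 0.12, 0.67, -0.33, -0.47, -0.13 and -0.73 on arrays 1 to 8. Array 4 was high and array 8 low, and the dye orders overlapped. Its log2 fold change was -0.13 ± 0.13 (SE, 4 pairs of arrays) (adjusted p = 0.81, limma), 0.0021 without arrays 5 and 8, and differed in sign between the rows of the slide (means 0.15 and -0.41). On array 4 the meningeal and fibroblast marker list had its highest median (0.41) and on array 8 its lowest (-0.48), and the part of these cells in the *Wnt16* values was not tested.

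*Wnt3*, *Wnt9b* and *Wnt6* were looked at after their values had been seen, because arrays 5 and 8 stood out in them. *Wnt3* and *Wnt9b* are neighbouring genes on chromosome 10 of the reference, with no protein-coding gene between them. *Wnt3* gave -0.21, 0.031, -0.38, -0.30, 0.27, -0.36, -0.21 and 0.44 on arrays 1 to 8. It was higher on arrays 5 and 8 than on the other 6, whose mean was -0.24. *Wnt9b* gave 0.33, -0.050, -0.22, -0.45, 0.30, -0.28, -0.32 and 0.65. Array 8 was its highest, while array 5 was matched by array 1, so that the arrays overlapped. *Wnt6* went the other way, with 0.17, -0.12, 0.47, 0.15, -0.33, -0.10, -0.20 and -0.60, and was lower on arrays 5 and 8 than on all others. The log2 fold changes were -0.088 for *Wnt3* (SE 0.11), -0.0049 for *Wnt9b* (SE 0.13) and -0.068 for *Wnt6* (SE 0.11), all smaller than their standard errors. Without arrays 5 and 8 the *Wnt3* value became -0.24, again not called (adjusted p = 0.64, limma). In the same fit *Wnt9b* was -0.16 (SE 0.10) and *Wnt6* turned to 0.063 (SE 0.092), neither of them called. *Wnt10a* lies next to *Wnt6* on chromosome 9 and was -0.073 on average on arrays 5 and 8 and -0.045 on the others.

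The other ligands with a ratio were *Wnt1*, *Wnt4*, *Wnt5a*, *Wnt5b*, *Wnt7b*, *Wnt10a*, *Wnt10b* and *Wnt11*. *Wnt5a* and *Wnt5b*, ligands best known for signalling without beta-catenin, had log2 fold changes of 0.0021 (95% interval -0.14 to 0.14) and -0.0011 (-0.18 to 0.18). *Wnt4* was 0.028 (-0.11 to 0.17) and *Wnt7b*, a partner of *Wnt7a* in brain vessel growth, was -0.014 (-0.14 to 0.11). *Wnt7b* was above background in Cy3 on 1 array only, so its ratio is not a reading of no change. *Wnt1*, classically a ligand of the midbrain, was -0.083 (-0.26 to 0.089), with 4 arrays above and 4 below 0. *Wnt11* was 0.014, *Wnt10a* -0.052 and *Wnt10b* -0.035, each smaller than its standard error. The array values of these 8 ligands spanned both signs.

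Of the 10 receptor genes measured, 8 were above background on all 8 arrays, and they ranged from -0.086 in *Lrp5* to 0.12 in *Fzd2*. *Fzd2*, a receptor shared by several ligands, gave 0.093, -0.080, 0.23, -0.051, -0.086, 0.47, 0.26 and 0.11 on arrays 1 to 8. With RA in Cy5 all 4 arrays were above 0, whereas with RA in Cy3 array 7 alone was above 0. Its log2 fold change was 0.12 ± 0.069 (SE, 4 pairs of arrays) (adjusted p = 0.61, limma). Arrays 6 and 7 were its highest, and the value was 0.037 without them. On the same arrays the choroid plexus list was at its lowest, and whether that bears on *Fzd2* was not tested.

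*Fzd6*, the next highest receptor, gave -0.026, 0.18, 0.048, -0.14, -0.15, 0.26, 0.0038 and 0.12 and a log2 fold change of 0.037 ± 0.058 (SE, 4 pairs of arrays). Its second probe gave 0.032. *Lrp5*, a co-receptor, gave -0.28, 0.059, 0.020, 0.17, 0.011, -0.012, -0.42 and -0.22 and a log2 fold change of -0.086 ± 0.073 (SE, 4 pairs of arrays). Its sign was not stable, at 0.0038 without arrays 1 and 7. *Lrp6*, the other co-receptor, was 0.00024 (95% interval -0.17 to 0.17), higher on arrays 6 and 7 (0.16 and 0.33) than on the others and -0.082 (SE 0.058) without them. A second *Lrp6* probe, also above background on all arrays, gave 0.15 and -0.0056 on arrays 6 and 7. It was 0.21 on array 3, so arrays 6 and 7 were not its highest, and its log2 fold change was 0.035 (SE 0.058). *Fzd1*, *Fzd3*, *Fzd8* and *Fzd9* lay between -0.064 and -0.0057, with intervals that all held 0 and array values of both signs.

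Among the secreted inhibitors, 7 were measured and 3 were above background on all 8 arrays. *Dkk3*, which is grouped with the Dickkopf genes by sequence but is not known to block Lrp6 as its relatives do, had the lowest fold change of all members. It gave -0.32, -0.22, 0.045, 0.21, -0.48, -0.36, -0.33 and -0.55 on arrays 1 to 8. Arrays 5 and 8 were lowest, and arrays 3 and 4 were above 0. The log2 fold change was -0.25 ± 0.10 (SE, 4 pairs of arrays), 1.19-fold lower after RA (adjusted p = 0.41, limma). It was -0.16 without arrays 5 and 8 and -0.22 without arrays 6 and 7, and in neither case under a p of 0.05. The rows of the slide had means of -0.072 and -0.43, and it was called without arrays 3 and 4 (-0.38). Arrays 5 and 8 were also lowest for hypothalamic neuron and meningeal markers, whose part in the *Dkk3* values was not tested.

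*Sfrp2*, which encodes a secreted frizzled-related protein, showed the clearest split between dye orders and was singled out after its values had been seen. It gave 0.31, -0.53, 0.39, -0.33, -0.19, 0.44, -0.43 and 0.53 on arrays 1 to 8. All 4 arrays with RA in Cy5 were above 0 and all 4 with RA in Cy3 below. The means were 0.42 and -0.37, so that the log2 fold change was 0.025 ± 0.057 (SE, 4 pairs of arrays) (adjusted p = 0.93, limma). *Sfrp4* had the same split at a smaller size (0.20 and -0.22), with a log2 fold change of -0.0070 (95% interval -0.13 to 0.12). *Sfrp5* gave 0.076, -0.13, 0.20, -0.32, -0.025, -0.23, -0.31 and 0.047 on arrays 1 to 8 and a log2 fold change of -0.086 ± 0.063 (SE, 4 pairs of arrays). A second probe of *Sfrp5*, above background on 4 arrays, gave 0.10 (SE 0.078), of opposite sign, so no direction can be given.

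**Figure D2:**
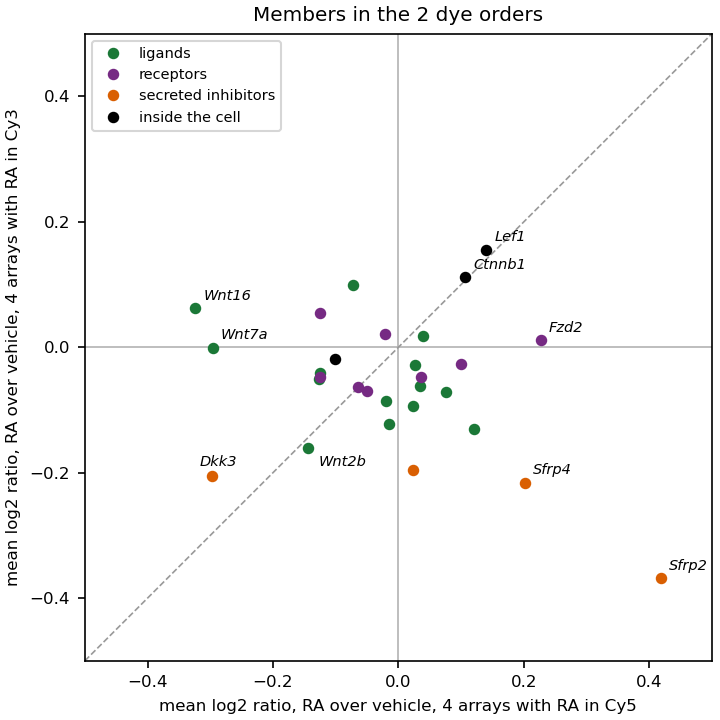
Mean log2 ratio over the 4 arrays with RA in Cy5 (x axis) against the mean over the 4 arrays with RA in Cy3 (y axis), 1 point for each of the 29 members above background on at least 5 arrays, coloured by role. *Wnt2b*, *Dkk3*, *Lef1* and *Ctnnb1* lie near the dashed line of equal values, whereas *Sfrp2* lies at 0.42 and -0.37.

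The dye orders gave opposite signs in 20 of the 37 members (54.1%), against 52.3% of all named genes. They did not overlap in *Wnt7a*, *Sfrp2*, *Sfrp4* and, below background, *Dkk2*.

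Inside the cell, *Ctnnb1*, *Lef1* and *Axin2* were measured and all were above background on all 8 arrays. *Ctnnb1*, the gene of beta-catenin, gave 0.073, 0.12, 0.038, -0.052, 0.15, 0.14, 0.22 and 0.17 on arrays 1 to 8. It was above 0 on 7 of 8 arrays, and both dye orders had a mean of 0.11. The log2 fold change was 0.11 ± 0.051 (SE, 4 pairs of arrays) (adjusted p = 0.50, limma). These are transcript levels, whereas the pathway acts on the stability of the protein.

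*Lef1*, a nuclear partner of beta-catenin, had the highest fold change of all members and one of the widest spreads. It gave 0.17, 0.036, -0.18, -0.21, 0.86, -0.23, -0.061 and 0.80 on arrays 1 to 8. Arrays 5 and 8 were far above the other 6, of which the highest was 0.17. The log2 fold change was 0.15 ± 0.16 (SE, 4 pairs of arrays) (adjusted p = 0.82, limma), and it was -0.078 (SE 0.075) without arrays 5 and 8. A second *Lef1* probe, also above background on all arrays, gave -0.018, -0.11, 0.0079, -0.20, 0.19, 0.021, -0.070 and 0.60, again highest on array 8 and next highest on array 5. Its log2 fold change was 0.054 (SE 0.086). The rows of the slide had means of -0.044 and 0.34 for the brighter probe.

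*Axin2*, the readout of the canonical branch, gave -0.079, 0.055, 0.0076, 0.064, -0.13, -0.37, -0.062 and 0.033 on arrays 1 to 8. It was above 0 on 4 arrays and below on 4, and array 6 was lowest. The log2 fold change of -0.060 ± 0.056 (SE, 4 pairs of arrays) (adjusted p = 0.79, limma) had a 95% interval from -0.19 to 0.073, so that a rise of *Axin2* above 0.073 lies outside the interval.

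**Figure D3:**
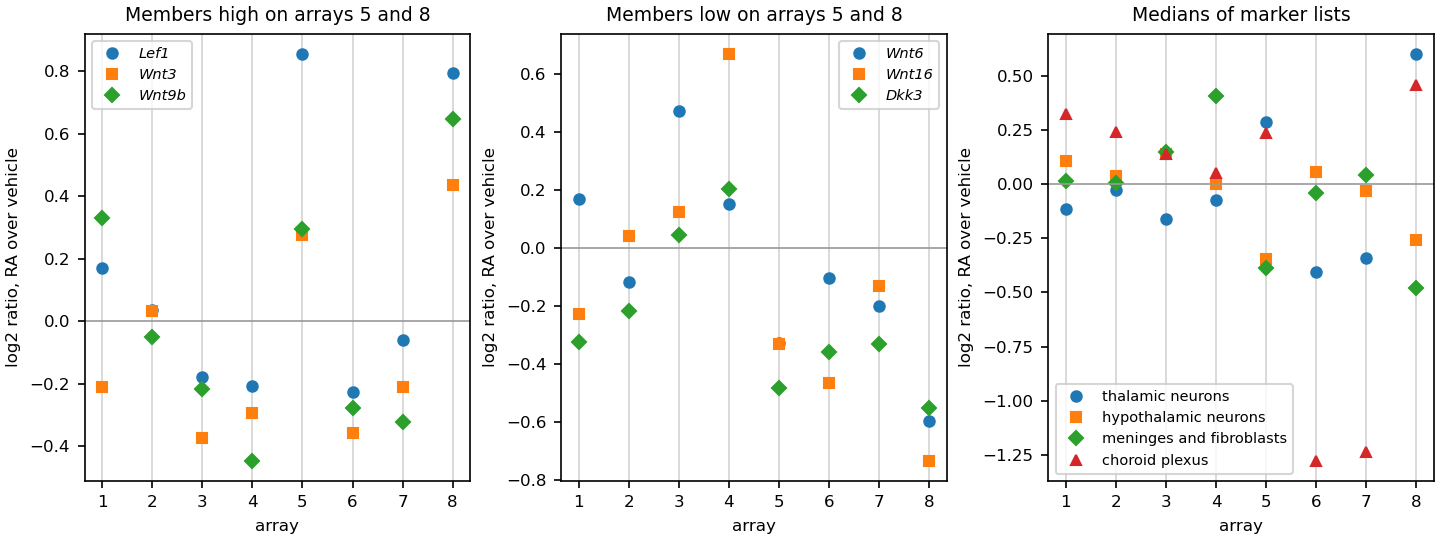
Log2 ratio of RA over vehicle (y axis) on each of the 8 arrays (x axis) for *Lef1*, *Wnt3* and *Wnt9b* (left), for *Wnt6*, *Wnt16* and *Dkk3* (middle) and for the medians of 4 marker lists (right). *Lef1* reaches 0.86 and 0.80 on arrays 5 and 8, where the thalamic neuron median is 0.29 and 0.60 and the meningeal median -0.39 and -0.48.

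Arrays 5 and 8 were looked at as a pair across all members. *Lef1*, *Wnt3*, *Wnt4* and *Fzd1* were higher on both than on any other array, and *Dkk3* and *Wnt6* were lower. Without these arrays *Wnt4* was -0.014 and *Fzd1* -0.045, both smaller than their standard errors. The members higher and lower there are 10.8% and 5.41% of the members, against 5.73% and 4.92% of all named genes. All 7 measured thalamic markers were above background on all 8 arrays, and 6 of them were above 0 on both arrays 5 and 8, *Calb2* being the exception. Of the 10 meningeal and fibroblast markers, 9 were below 0 on both, and of the 19 hypothalamic markers 15 were. The exceptions among the latter were *Crh*, which was 0.84 and 0.93 on arrays 5 and 8, *Tac3*, with 0.20 and 0.090, and *Sim1* and *Otp*, which had a different sign on each. *Prkcd*, a marker of thalamic relay neurons, was 1.39 and 1.48 on arrays 5 and 8 and at most 0.27 on the others. *Lef1* is itself known from thalamic neurons of the adult brain. *Pomc*, the arcuate melanocortin precursor, was -1.11 and -1.08 on these arrays. In tissue blocks, fewer cells of a type and less RNA per cell cannot be told apart, and the part of dissection in the *Lef1*, *Wnt3* and *Wnt6* values was not tested.

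Arrays 6 and 7 were both above all others for *Fzd2* and for the brighter *Lrp6* probe, though not for its second, and both below for *Wnt4*. These are 5.41% and 2.70% of the members against 8.80% and 7.27% of all named genes. *Wnt4* was -0.15 and -0.17 there and at least 0.018 elsewhere, and its log2 fold change without these arrays was 0.090 (SE 0.052), not called.

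Other genes of the pathway were taken from lists by role. In 6 lists outside the members (release and agonists, other antagonists, other receptors, cytoplasmic relay, planar polarity and nuclear partners), 57 of 72 genes were measured. None of the 57 passed the threshold, and at a p under 0.05 in limma 1 was higher and 1 lower. The shares of all named genes were 3.52% higher and 0.792% lower at the threshold, and 8.48% and 4.57% at a p under 0.05. The first was *Igfbp4*, a secreted binding protein also described as a Wnt antagonist, with 0.43 (SE 0.16, adjusted p = 0.39, limma). It was 1.11 and 1.13 on arrays 6 and 7 and between -0.062 and 0.36 on the others, and the log2 fold change was 0.21 (SE 0.070) without these arrays. The other was *Tle1*, a co-repressor of TCF/LEF factors, with -0.12 (SE 0.052, adjusted p = 0.46, limma).

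Medians of these lists were small. They were -0.0077 for the 6 genes of Wnt release and agonists, where *Rspo3*, an R-spondin, was -0.12 and *Wls*, the carrier of Wnt proteins, was -0.026. The 8 other receptors had a median of -0.052, with *Ror1*, *Lgr4* and *Ror2* at -0.13, -0.12 and -0.17, none past a p under 0.05. A second *Ror2* probe gave 0.025, of opposite sign. The 16 genes of the cytoplasmic relay had a median of -0.031, with *Gsk3b*, the kinase that marks beta-catenin for breakdown, at -0.10. The 9 planar polarity genes had a median of 0.027 and the 12 nuclear partners of -0.014.

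The 6 other secreted antagonists had a median of -0.097 and held 3 genes that stood out on these arrays, namely *Igfbp4*, *Frzb* and *Sostdc1*. *Frzb* was -1.28 and -1.01 on arrays 5 and 8 and at least -0.17 on the others. *Sostdc1*, an antagonist that is also a choroid plexus marker here, was -3.42 and -3.59 on arrays 6 and 7 and at least -0.095 elsewhere. Neither *Frzb* nor *Sostdc1* passed a p under 0.05, with log2 fold changes of -0.24 and -0.40 and standard errors of 0.20 and 0.68. Both changed sign without the arrays concerned, to 0.066 (SE 0.083) for *Frzb* without arrays 5 and 8 and 0.63 (SE 0.18) for *Sostdc1* without arrays 6 and 7, again not called.

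Textbook target genes of the pathway were a further list, chosen with earlier results of these data known, of which 12 of 16 were measured and 3 are members. It shares *Notum*, *Rnf43* and *Lgr5* with the lists above. *Ccnd1*, *Cd44* and *Myc* were higher after RA at a p under 0.01, and none was lower, where 3.52% of all named genes were higher and 0.792% lower. *Ccnd1*, a cyclin of the cell cycle, gave 0.29, 0.14, 0.50, 0.51, 0.44, 0.86, 0.70 and 0.72 on arrays 1 to 8, all above 0, and a log2 fold change of 0.52 ± 0.086 (SE, 4 pairs of arrays) (adjusted p = 0.22, limma). *Cd44*, a cell surface receptor for hyaluronan, gave 0.15, 0.28, 0.65, 0.73, 1.26, 1.24, 1.58 and 0.81, again all above 0, and a log2 fold change of 0.84 ± 0.17 (SE, 4 pairs of arrays) (adjusted p = 0.24, limma). This is the brightest of 4 *Cd44* probes. The other 3, of which 1 was above background on 5 arrays and 2 on none, gave 0.070, 0.017 and 0.042, and the mean of all 4 was 0.24 (SE 0.064), still called. *Myc*, a growth regulator, gave 0.0074, 0.20, 0.25, 0.65, 1.20, 0.79, 0.87 and 1.04, with array 1 barely above 0, and a log2 fold change of 0.63 ± 0.15 (SE, 4 pairs of arrays) (adjusted p = 0.27, limma). All 3 are also known as targets of many other signals. The mean differed between the rows of the slide for each, at 0.36 and 0.68 for *Ccnd1*, 0.45 and 1.22 for *Cd44*, and 0.28 and 0.98 for *Myc*. Without arrays 6 and 7 *Myc* was 0.56 and no longer past the threshold, and it also missed it in the first row of the slide (0.28), with RA in Cy5 alone (0.52) and without arrays 6 and 4 (0.59), 6 and 5 (0.50) or 8 and 7 (0.52).

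The remaining 9 targets did not pass. Among the feedback genes of the pathway and other genes widely read as specific targets were *Axin2* at -0.060, *Sp5* at 0.090, *Rnf43* at 0.083, *Lgr5* at -0.055 and *Notum* at -0.15. *Bambi*, with -0.13, passed a p under 0.05 (adjusted p = 0.42, limma). The median of the list of 12 was 0.075, against -0.0046 for all named genes. It includes *Dkk1*, above background on no array, and *Rnf43*, above background on 3.

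**Figure D4:**
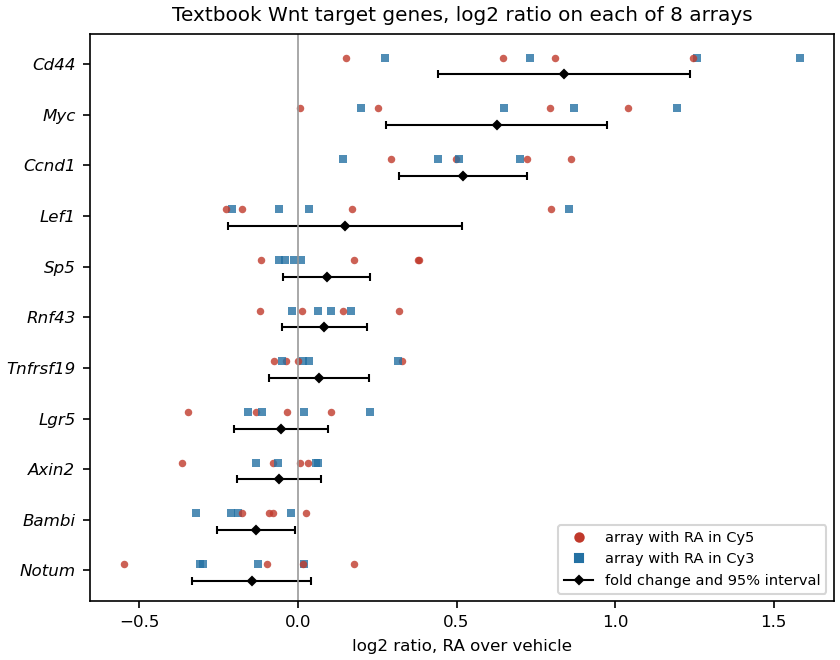
Log2 ratios of RA over vehicle (x axis) for the 11 textbook target genes above background on at least 3 arrays, with 1 point per array coloured by dye order and a black diamond with a 95% confidence interval for the fold change. *Cd44*, *Myc* and *Ccnd1* lie above 0 on all 8 arrays, whereas *Axin2*, *Lgr5*, *Sp5* and *Notum* spread over both signs.

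Markers of other cells moved in the same samples. Of the 11 markers of microglia and macrophages, 5 were higher and 1 lower at a p under 0.01 in limma, where 3.52% and 0.792% of all named genes were, with a list median of 0.37 that ranged from 0.091 to 0.80 over the arrays. *Cd44* is also made by such cells, and the part of these cells in the target genes was not tested. The microglial list was lowest on array 3 and highest on array 6. Of the 11 tanycyte and ependymal markers 2 were higher, and of the 10 astrocyte markers 1 was higher and 2 lower. Endothelial markers, a list of the cell type and not of *Wnt7a* or *Wnt7b* action, had 0 of 12 past that threshold and a median of -0.063. At a p under 0.05 in limma, 3 of the 12 were lower, where 4.57% of all named genes were. List medians were 0.0081 for pericytes and smooth muscle, -0.11 for oligodendrocytes and their precursors and -0.061 for pituitary cells. Of the 11 oligodendrocyte markers, 1 was lower at a p under 0.01 and 5 at a p under 0.05 in limma. The shares of all named genes were 0.792% and 4.57%. Of the 8 pericyte and smooth muscle markers, 2 were higher at a p under 0.05 in limma, where 8.48% of all named genes were.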

How the data were processed

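The authors deposited the scanner output of 8 two-colour arrays, with red and green intensity values per spot and a log10 ratio of red over green from the image software. A further table that the authors deposited holds normalised log2 ratios, made, per their methods, with limma, loess and averaging of identical probes. Depth has no meaning for arrays, and their number limits the precision.

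From the intensities, background was corrected by normexp (offset 50) in R 4.3.3 with limma 3.58.1. Control spots and spots marked as outliers were dropped, loess was applied within arrays and the remaining spots, of 58717 that were not controls among 62976 per array, were averaged to 30367 probes. Probes were named by RefSeq accession (GRCr8), and the brightest probe stood for a gene.

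Arrays of opposite dye were averaged in 4 pairs and fitted in limma, with moderated variances, for all 24 pairings. The largest p was kept, with Benjamini-Hochberg adjustment over all probes. Intervals are at 95%. The test was checked on simulated data. The members, the lists of pathway genes and cell type markers and the tests were chosen with earlier results of these data known.

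Given on each array are members with an unadjusted p under 0.05, the 4 highest and the 4 lowest fold changes among those above background on all 8 arrays, and members that were singled out by Dixon's test or changed a given sign in an alternative. In further lists, up to 3 genes with the smallest p were named. Any other gene was picked with its values in view. The 37 alternatives covered background correction, normalisation, probe choice, the use of the dye-swap, slide rows and arrays left out. Protein sequences were not analysed here.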

Additional observations from a re-analysis of the deposited data

Results flagged for a closer look

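*Fzd2* on array 7 lay far from the other arrays with RA in Cy3. Its log2 ratio there was 0.26, whereas the other 3 lay between -0.086 and -0.051. This was the single such array among 74 groups of 4 arrays that were searched, 2 for each member, where chance gives about 1 in 20, or 3.7 groups.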

How the results depend on the processing

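No member reached an adjusted p under 0.05 in limma under any of the 37 alternatives, and *Wnt2b* was the single member of 1 sign on all 8 arrays under each of the 7 alternatives that give ratios per array. Quantile normalisation of intensities between arrays is counted in both, and it could not differ because it leaves the ratios unchanged. The fits without arrays 6 and 7 and without arrays 5 and 8 are counted on their own and again among those with 1 array of each dye order left out. The 37 are therefore not all distinct. The number of members with a p under 0.01, 0 as reported, was 1 without background correction, with Agilent's log ratio, with the deposited values, with pairs as a random block and with the mean of all probes of a gene, in each case *Wnt2b*. It was 3 with 8 independent arrays and a dye term and with the pairing most favourable to the members (*Wnt2b*, *Wnt7a* and *Dkk3* in both), 3 with RA in Cy5 alone, 2 with RA in Cy3 alone and 2 in the second row of the slide (*Dkk3* and *Wnt16*). A fit on 1 dye order cannot tell a dye effect from RA, and *Sfrp2* passed in both with opposite signs (0.42 and -0.37). The number ranged from 0 to 2 when 1 array of each dye order was left out. *Dkk3* passed without array 4 together with array 3, 6 or 8, and in the last case so did *Wnt8a*, which was not read here. The number with a p under 0.05, 3 as reported, was 1 with Agilent's log ratio, 5 with the most favourable pairing, 7 with RA in Cy5 alone, 9 with RA in Cy3 alone, 1 without arrays 6 and 7, and 0 to 5 when 2 arrays were left out, with 0 without arrays 1 and 2 and 5 without arrays 3 and 4 or 6 and 4. The median log2 fold change of the members became -0.053 with plain background subtraction, -0.13 with Agilent's log ratio and -0.047 with RA in Cy3 alone, and moved by less than 0.032, the SD of the member median over the arrays, under the other 34 alternatives. All named genes had a median of -0.031 with Agilent's log ratio. Textbook targets past a p under 0.01, 3 as reported, were 1 with plain subtraction and 1 with Agilent's log ratio, in each case *Ccnd1*. They were 2, without *Myc*, with RA in Cy5 alone, in slide row 1 and without arrays 6 and 4, 6 and 5, 6 and 7 or 8 and 7, and 2 to 3 when 2 arrays were left out. The adjusted p in limma of *Ccnd1*, *Cd44* and *Myc* was 0.025, 0.036 and 0.071 with pairs as a random block. With slide row as a block it was 0.015, 0.0095 and 0.013. With plain subtraction it was 0.71 for each, and with Agilent's log ratio 0.60. Other pathway genes past an unadjusted p under 0.01, 0 as reported, were 1 with independent arrays, with the random block, with the most favourable pairing and in slide row 1, in each case *Igfbp4*. They were 6 with RA in Cy5 alone and 4 with RA in Cy3 alone, of which *Apc2*, *Bcl9* and *Csnk1d* passed in both with opposite signs, and 0 to 1 when 2 arrays were left out. Signs were compared for members whose fold change exceeded its SE. *Axin2* changed sign in slide row 1 (0.012) and ranged from -0.096 to 0.0031 when 2 arrays were left out. *Sfrp5* changed sign with RA in Cy5 alone (0.024) and with the mean of its probes (0.0088), and *Lrp5* ranged from -0.15 to 0.0038 when 2 arrays were left out. The cause of these changes was not tested. Genes called among all named genes ranged from 112 higher and 104 lower with Agilent's log ratio, and 150 and 22 with plain subtraction, to 1090 and 418 with the most favourable pairing, against 534 and 120 as reported. No paired analysis by replicate number was possible because each array has its own number. Of the members, 7 were not above background on any array, which limits what could be read.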
